A study of Mus musculus with 18 samples.

Results

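The genes described are the mitochondrial ribosomal protein genes of the mouse, taken as every gene whose symbol starts with Mrpl or Mrps and a digit. There were 77 of them among the 23919 genes used, 48 named Mrpl and 29 named Mrps. They were chosen by name alone and not by any measured value. RNA was sequenced in 18 libraries of C57BL/6 mouse embryos, in 6 groups of 3. Wild-type (WT) embryos and embryos homozygous for a knockout (KO) of Pitx1, which encodes a homeodomain transcription factor of the hindlimb, were each sampled at embryonic days E9.5, E11.5 and E12.5. The hindlimb was taken at E11.5 and E12.5, whereas the E9.5 samples held the hindlimb field together with the trunk beside it. The labels do not describe the knockout allele, nor whether replicates were separate embryos, litters or pools, so p-values measure the spread between these libraries, part of which may be technical. The comparisons ask whether genotype or stage went with a different RNA level of these genes.

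Mitochondria keep a ribosome of their own, which translates the few proteins that mitochondrial DNA encodes, all of them parts of the respiratory chain and the ATP synthase. The ribosomal RNAs come from mitochondrial DNA, but every protein of this ribosome is encoded in the nucleus, made in the cytosol and imported. Some of these proteins have a bacterial counterpart and others occur only in mitochondria. By convention Mrpl genes encode proteins of the large subunit, which joins amino acids, and Mrps genes those of the small subunit, which reads the messenger RNA. Symbols and structure do not always match: the products of Mrps30 and Mrps18a sit in the large subunit, and that of Mrps36 is now known as a subunit of the ketoglutarate dehydrogenase complex.

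Each library held 14361921 to 60672151 fragments over the genes used, with the lowest totals in the E9.5 KO (14361921 to 18553033) and the highest in the E11.5 KO (44986882 to 60672151). Pitx1 itself, given in RPKM (reads per kilobase of transcript, scaled for library size, as deposited), was lower in each KO library than in each WT library of its stage. It measured 54.8 ± 5.55 in the WT and 22.5 ± 3.63 in the KO at E9.5, 119.7 ± 16.3 and 20.2 ± 2.96 at E11.5, and 90.4 ± 39.7 and 11.9 ± 1.32 at E12.5 (SD, n = 3 each). WT replicate 3 of E12.5 stood apart with 44.6 RPKM of Pitx1, against 114 and 112 in its partners. Of the 8 limb mesenchyme markers, all reached a mean of 1 RPKM in every group except Lhx9 in the E9.5 KO. The 4 somite markers summed to 140 to 190 RPKM per library at E9.5 and to 12.8 to 27.1 at the later stages, and the 5 neural markers to 35.4 to 69.0 and to 12.4 to 20.5. In such bulk samples fewer cells of a type and less RNA per cell cannot be told apart.

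Most of the 77 genes were well expressed and their levels covered a wide range. In the E9.5 WT the median of the 77 group means was 59.5 RPKM, 14 genes were above 100 RPKM and 10 were below 20. In the E11.5 WT the median was 42.1 RPKM, with 8 genes above 100 and 13 below 20. The 5 highest genes held 21.5% of the summed level in the E9.5 WT and 20.3% in the E11.5 WT. The order of the genes was nearly the same in all groups. Spearman's rho of the group means over 75 genes was 0.95 between the E9.5 and the E11.5 WT and 0.99 between the E11.5 and the E12.5 WT, as a description across genes measured on the same libraries.

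The highest levels belonged to Mrpl52, Mrpl20, Mrps21, Mrpl13 and, at E9.5 and E11.5, Mrpl12. Mrpl12 encodes the flexible stalk protein that recruits translation factors to the ribosome. Mrpl52, which encodes a protein found only in mitochondria, stood at 308, 219 and 232 RPKM in the 3 E9.5 WT libraries and at 192, 182 and 200 in the E11.5 WT. Mrps21, a small subunit protein with a bacterial counterpart, stood at 326, 189 and 201 and at 159, 156 and 178 in the same groups. In the E9.5 WT the spreads of these top genes overlap, so their order there is not resolved. In the E11.5 WT each library of Mrpl52 was above every library of Mrpl20 (148 to 179 RPKM), Mrps21 and Mrpl13 (161 to 176). Mrpl12 was below all of them there, at 108 to 127 RPKM. The stalk base genes Mrpl10 and Mrpl11 were lower than the stalk gene Mrpl12, with 64.6 ± 3.87 and 42.8 ± 7.21 RPKM against 268.6 ± 28.9 in the E9.5 WT (SD, n = 3).

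At the low end stood Mrpl23, Mrps36, Mrps25 and Mrps33, followed by Mrpl19 at E9.5 and by Mrpl17 later. Mrps25 had 8.31 RPKM and Mrps33 9.73 RPKM in the E9.5 WT, as group means. Mrpl23, a protein at the exit of the tunnel through which new chains leave, was listed at 0 to 2.02 RPKM over all 18 libraries. A processed copy of Mrpl23 in the GENCODE M21 transcripts matches it with 100% identity, and the treatment of fragments that fit both is not given in the sources used here, so its level is uncertain. Mrps36 lay between 0.412 and 2.17 RPKM and has 4 such copies. By contrast Mrpl24, another protein at the tunnel exit, had 81.2, 66.1 and 62.5 RPKM in the E9.5 WT and 73.7, 83.1 and 82.0 in the E11.5 WT. The 3 genes that descend from 1 bacterial protein differed in level: Mrps18c had 126.5 ± 25.9 RPKM in the E9.5 WT, Mrps18a 82.0 ± 8.33 and Mrps18b 32.5 ± 1.11 (SD, n = 3).

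The summed level of the 77 genes was higher in each E9.5 library than in any later one. It was 6374, 5522 and 5073 RPKM in the E9.5 WT, 5772, 5355 and 5480 in the E9.5 KO, 4053, 3725 and 4177 in the E11.5 WT, 4135, 4846 and 4464 in the E11.5 KO, 4175, 4241 and 3796 in the E12.5 WT, and 4224, 4138 and 4088 in the E12.5 KO. These levels come from tables that were normalized separately per stage, and the genotypes overlap at each stage. As a share of all fragments the genes took 0.455% to 0.554% at E9.5 and 0.337% to 0.415% at the later stages.

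**Figure D1:**
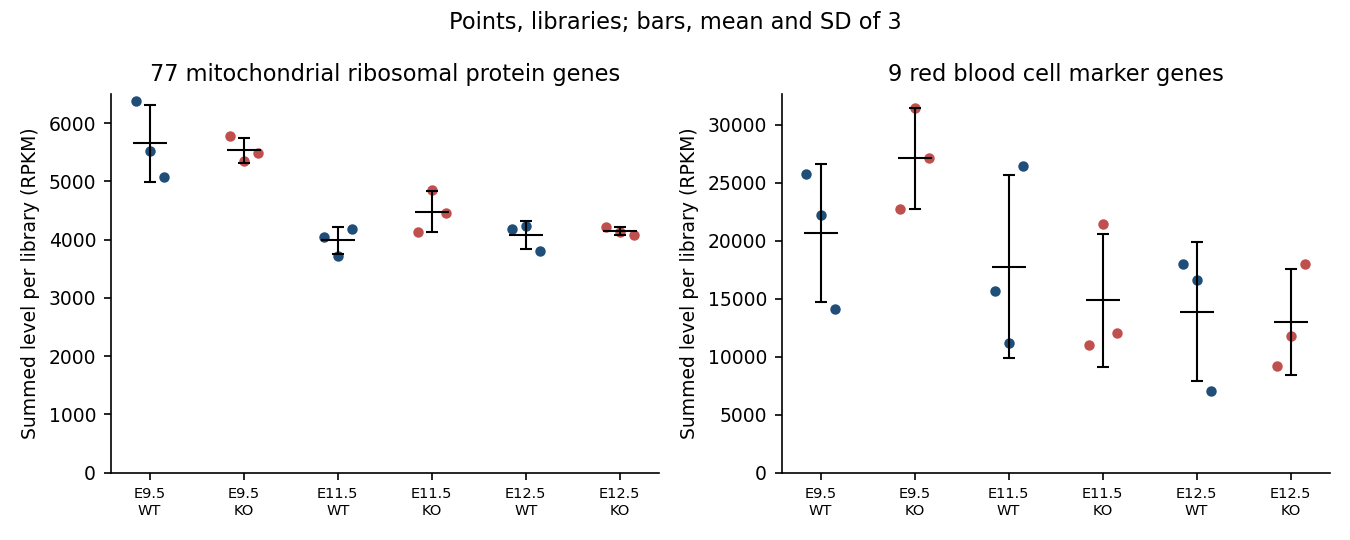
Summed RPKM of the 77 mitochondrial ribosomal protein genes (left) and of the 9 red blood cell marker genes (right) in each of the 18 libraries, by stage and genotype; points are libraries and bars give the mean and SD of 3. The 6 libraries of E9.5 lie between 5073 and 6374 RPKM for the ribosomal genes and the 12 later ones between 3725 and 4846.

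In several libraries most of the family deviated from the group mean in the same direction. In WT replicate 1 of E9.5, 67 of the 77 genes were above their group mean and in replicate 3 of that group 8 were, with median deviations of 0.13 and -0.14 on the log2 scale. In KO replicate 2 of E11.5, 72 genes were above the group mean, and in KO replicate 1 only 9 were. Over all genes kept by the low-count filter, the median deviations were -0.01 in WT replicate 1 and 0.01 in WT replicate 3 of E9.5. For KO replicates 2 and 1 of E11.5 they were 0.004 and 0.006. The red blood cell markers, 8 of 9 of them at 1 RPKM or more in each group and Hba-a2 at or near 0, also differed between replicates, with summed levels of 25727 RPKM in WT replicate 1 and 14104 in WT replicate 3 of E9.5, and of 21461 in KO replicate 2 and 11046 in KO replicate 1 of E11.5. WT replicate 3 of E12.5 had the lowest marker sum of all, 7044 RPKM, and the lowest ribosomal sum of its stage. In the E9.5 KO the highest ribosomal sum belonged to the library with the lowest marker sum, 22724 RPKM. So it was in the E12.5 KO, with ribosomal sums of 4224, 4138 and 4088 RPKM and marker sums of 9189, 11746 and 18009. Other families shifted in the same replicates. Cytosolic ribosomal protein genes summed to 43613, 35842 and 32019 RPKM in the E9.5 WT and to 24800, 29673 and 25865 in the E11.5 KO. Oxidative phosphorylation genes summed to 21344, 18401 and 16257 and to 15717, 19035 and 16574. The part of blood cells in the results was not tested.

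Between E9.5 and E11.5 the mitochondrial ribosomal protein genes were lower at the later stage almost throughout. In the WT 65 of the 77 genes fell and none rose, where 27.6% of the 15372 genes tested fell and 28.3% rose. The call is an adjusted p under 0.05 in edgeR's quasi-likelihood test on the estimated fragment counts, with Benjamini-Hochberg adjustment over all genes tested. The median log2 fold change of the 77 genes was -0.59 (quartiles -0.68 and -0.42), beside 0.01 for all genes tested, and 76 of the 77 values were negative. Split by symbol the counts were similar: 42 of the 48 Mrpl genes fell, with a median of -0.59. Of the 29 Mrps genes, which include Mrps30, Mrps18a and Mrps36, 23 fell, with a median of -0.60. Genes with a bacterial counterpart and genes found only in mitochondria had medians of -0.60 and -0.58 among the Mrpl genes. Among the Mrps genes these medians were -0.56 and -0.66. The limb mesenchyme markers summed to 245 to 374 RPKM in the E9.5 WT and to 695 to 734 in the E11.5 WT, the cartilage markers to 31.2 to 53.1 and 199 to 262 (Matn1 at 0 at E9.5), and the red blood cell markers to 14104 to 25727 and 11175 to 26462. The part of this change in tissue in the result was not tested. Stage cannot be told apart here from the table a library belongs to or from the trunk tissue in the E9.5 samples.

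Mrps18b showed the largest fall in the WT. It encodes a small subunit protein and measured 31.4, 33.6 and 32.5 RPKM at E9.5 and 13.3, 10.7 and 12.3 at E11.5. Each E11.5 library was below every E9.5 library. The difference was -1.50 ± 0.12 in log2 units (SE, adjusted p = 4.1e-07, edgeR). A copy of Mrps18b with 99.8% identity is annotated, so part of its fragments may belong elsewhere.

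Mrpl12 fell from 299, 264 and 242 RPKM to 127, 108 and 125. It had the highest mean of the 77 in the E9.5 WT and was the fifth in the E11.5 WT. The difference was -1.24 ± 0.12 in log2 units (SE, adjusted p = 1.08e-06, edgeR). Mrps28, a small subunit protein related to bacterial S1, fell from 69.3, 69.2 and 65.6 RPKM to 36.1, 27.8 and 32.8, -1.16 ± 0.12 as log2 fold change (SE; adjusted p = 3.98e-06, edgeR). Neither gene had overlapping groups.

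Mrps10, a protein of the head of the small subunit, stood at 22.6, 22.1 and 22.9 RPKM in the E9.5 WT and at 11.31, 8.90 and 13.998 in the E11.5 WT, a fall of 1.05 ± 0.18 on the log2 scale (SE, adjusted p = 2.3e-04, edgeR). The other large falls in the WT were those of Mrps6 (-0.99), Mrps34 (-0.96), Mrpl16 (-0.91), Mrps12 (-0.85), Mrpl17 (-0.82) and Mrpl38 (-0.75), given as log2 fold changes. Mrps12 encodes a protein of the decoding centre, Mrpl16 one near the catalytic centre and Mrpl38 one of the central protuberance. Stalk and tunnel exit genes differed among themselves: Mrpl10 fell by 0.36 and Mrpl11 by 0.45, Mrpl44 fell by 0.69 and Mrpl45 by 0.66 on the log2 scale, whereas Mrpl24 had the only positive value, 0.10 ± 0.10 (SE, adjusted p = 0.379, edgeR). The fold changes of these 5 genes, which belong to the set with known roles, were given after their values were seen. Mrps18a fell by 0.60 and Mrps18c by 0.52, again given after their values were seen, and the difference from Mrps18b was not tested.

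Other genes of the set with known roles moved in the same direction in the WT, given here by library. Mrps12 stood at 86.8, 98.7 and 67.9 RPKM at E9.5 and at 49.97, 42.09 and 57.66 at E11.5. Mrps30, whose product lies in the large subunit, stood at 49.5, 57.3 and 59.2 RPKM and then at 33.1, 32.7 and 40.2. Mrpl44, a relative of ribonuclease III near the tunnel exit, stood at 41.1, 44.1 and 43.5 RPKM and then at 32.02, 23.22 and 28.78. None of these genes had overlapping groups. Mrps27, a protein with pentatricopeptide repeats, stood at 54.8, 49.6 and 48.3 RPKM and then at 35.9, 32.7 and 39.2, and Mrps22 at 79.6, 65.3 and 61.8 and then at 42.8, 42.3 and 51.8. The 12 genes that did not pass were Mrpl14, Mrpl23, Mrpl24, Mrpl27, Mrpl41, Mrpl50, Mrps11, Mrps14, Mrps17, Mrps25, Mrps33 and Mrps36, all but Mrpl24 with a negative value. They include the lowest 4 genes of the family, of which Mrpl23 and Mrps36 rest on few fragments.

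In the KO the family was lower at E11.5 too. Of the 77 genes 48 fell and none rose, where 25.5% of the genes tested fell and 25% rose, and the median log2 fold change was -0.38, with 72 values below 0. Mrpl12 led with -1.03 ± 0.11 (SE, adjusted p = 7.63e-06, edgeR), from 277, 244 and 252 RPKM at E9.5 to 112, 152 and 138 at E11.5. Mrpl2, a protein near the catalytic centre, went from 88.4, 80.2 and 89.3 RPKM to 46.6, 57.2 and 52.1, and Mrpl22, which lines the tunnel, from 53.4, 37.3 and 44.8 to 26.6, 32.9 and 30.5. Mrps28 (-0.87), Mrps18b (-0.82), Mrpl2 (-0.80), Mrps12 (-0.78), Mrps6 (-0.76), Mrpl38 (-0.73), Mrpl34 (-0.70), Mrpl22 (-0.67) and Mrps34 (-0.65) followed on the log2 scale. Of the genes that fell in the WT, 47 (72.3%) also fell in the KO, which makes 97.9% of the KO's list, and the 1 KO gene outside the WT list was Mrpl14. These stage contrasts have no library in common, but they come from the same fit of 12 libraries with shared normalization and dispersions. The WT list alone held 84.4% of the family, so a large overlap is no separate result. Mrpl34 was no longer called without KO replicate 1 of E11.5 (adjusted p = 0.0534, edgeR). The red blood cell markers summed to 22724 to 31452 RPKM in the E9.5 KO and to 11046 to 21461 in the E11.5 KO, without overlap, and 4 of their 8 tested genes fell and 1 rose, with a median log2 fold change of -1.20. The limb mesenchyme markers summed to 286 to 307 and 688 to 824 RPKM in the same groups, and the cartilage markers to 34.9 to 58.0 and 111 to 156. The part of these in the result was not tested.

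**Figure D2:**
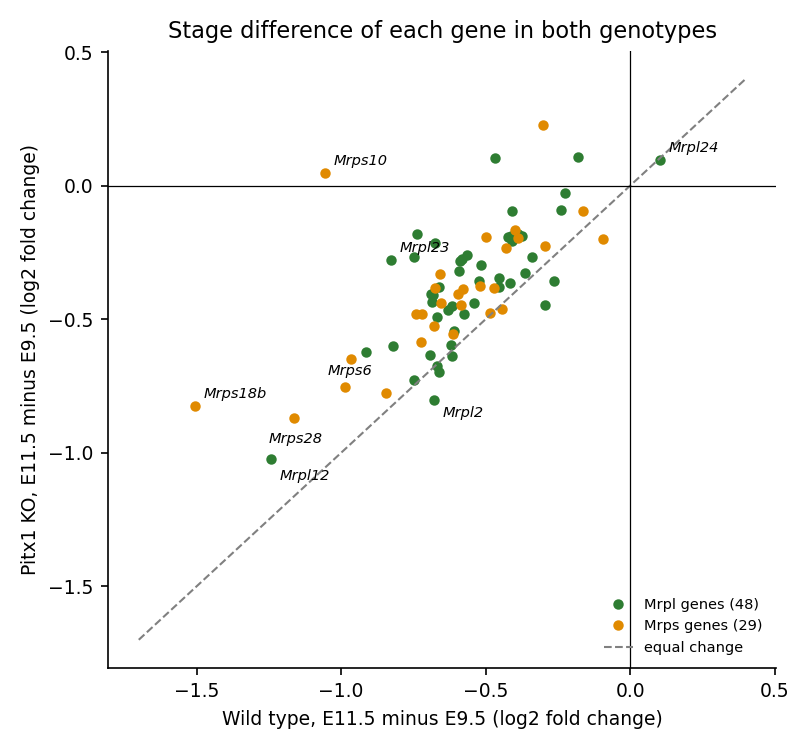
Log2 fold change from E9.5 to E11.5 of each of the 77 genes in the wild type (horizontal axis) and in the Pitx1 KO (vertical axis), with Mrpl genes in green, Mrps genes in orange and the line of equal change dashed. Most points lie in the lower left part and above the dashed line, and Mrps10 lies at 0.05 in the KO and at -1.05 in the WT.

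The values of the KO were less negative than those of the WT for 68 of the 77 genes, but no single gene passed the test of this difference. The interaction contrast, KO effect at E11.5 minus KO effect at E9.5, had a median of 0.19 on the log2 scale over the 77 genes, beside -0.02 for all genes tested. By edgeR 0 genes passed, beside 0.026% of all 15372, and 14 of the 77 had an unadjusted p under 0.05, beside 15.2% of all. With DESeq2 3 genes were called, Mrps10, Mrps18b and Mrpl18, where DESeq2 called 2.5% of all genes, a share near that of the family. Mrps10 had the largest difference, 1.10 ± 0.25 (SE, adjusted p = 0.139, edgeR), and its KO libraries stood at 17.2, 23.2 and 16.2 RPKM at E9.5 and at 17.22, 23.56 and 21.01 at E11.5 and gave a log2 fold change of 0.05 between stages (adjusted p = 0.844, edgeR). Mrps18b (0.68) and Mrpl32 (0.57) came next, and Mrpl32 was at 0.22 without WT replicate 1 of E9.5. Without WT replicate 1 of E9.5 the median over the family was 0.11, and without KO replicate 2 of E11.5 it was 0.13.

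The promoters of the 77 genes were searched for motifs of 4 factors or factor families known from genes of mitochondria and growth. The windows ran from 250 bases before to 50 after the gene start in RefSeq, mouse build GRCm38.p6, which is not the build of the expression tables. A window was found for 68 of the 77 genes. The ETS core CCGGAAG, on either strand, occurred in 24 windows (35.3%), against 9.12% of all 27025 windows and 11.8% of the 16736 windows of genes in the expression tables. The YY1 core AAGATGGCG occurred in 8 (11.8%), against 1.49% of all windows and 1.996% of those of table genes, and the NRF1 core GCGCATGCG in 7 (10.3%), against 1.81% and 2.44%. The E-box CACGTG occurred in 5 (7.35%), against 7.24% and 8.19%. At least 1 of the 4 was found in 36 windows and none in 32. Genes in the expression tables include those with little or no expression, and no count was made for other gene families. A match describes letters and shows no binding.

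**Figure D3:**
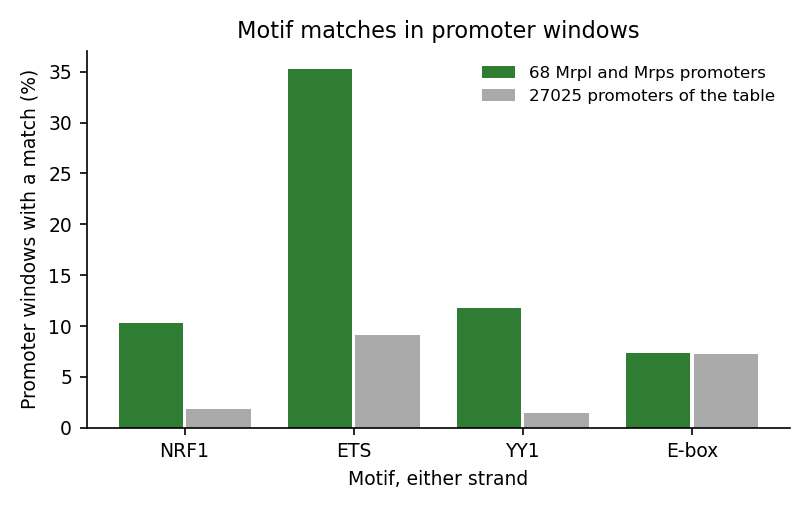
Share of promoter windows that hold each of 4 motifs on either strand, for the 68 Mrpl and Mrps genes with a window (green) and for all windows of the table (grey). ETS reaches 35.3% against 9.12%, and the E-box is at 7.35% against 7.24%.

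Stretches of 5 of these windows are shown for genes that the comparisons between stages name, 4 with a match and Mrpl12 with none, read 5′ to 3′ along the gene's strand with each match in capitals. Mrps18b, at chr17:35916571-35916690 (minus strand), has an NRF1 match and a further ETS match outside the stretch, after the start. Mrpl22, at chr11:58171544-58171663 (plus strand), has an ETS match followed by an NRF1 match. Mrps22, at chr9:98601680-98601799 (minus strand), has an ETS match close to the start. Mrpl32, at chr13:14613038-14613157 (minus strand), has 2 NRF1 places, the first of which reads as the motif on both strands with 1 base of offset. Mrpl12 is shown at chr11:120484517-120484636 (plus strand).
Mrps18b: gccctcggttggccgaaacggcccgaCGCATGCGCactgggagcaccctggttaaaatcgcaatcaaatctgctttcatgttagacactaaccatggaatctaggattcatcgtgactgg
Mrpl22: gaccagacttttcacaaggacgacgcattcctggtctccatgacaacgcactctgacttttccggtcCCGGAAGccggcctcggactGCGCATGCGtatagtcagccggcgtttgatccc
Mrps22: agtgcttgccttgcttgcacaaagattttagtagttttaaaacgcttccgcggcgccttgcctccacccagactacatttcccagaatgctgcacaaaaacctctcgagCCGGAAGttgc
Mrpl32: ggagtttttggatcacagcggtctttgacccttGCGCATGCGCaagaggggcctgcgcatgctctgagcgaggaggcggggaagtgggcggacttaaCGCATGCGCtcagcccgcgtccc
Mrpl12: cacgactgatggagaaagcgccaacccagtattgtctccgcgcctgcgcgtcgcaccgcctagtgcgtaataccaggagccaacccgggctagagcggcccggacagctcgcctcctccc

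The change between stages is given for genes with and without each motif as a description. The median log2 fold change from E9.5 to E11.5 in the WT was -0.64 for the 24 genes with the ETS core and -0.54 for the 44 without it, and -0.58 for the 7 with the NRF1 core and -0.59 for the 61 without. For the YY1 core the medians were -0.55 with and -0.59 without, and for the E-box -0.67 with 5 genes and -0.58 without. At E11.5 the KO effect had a median of 0.13 for the genes with the ETS core and 0.15 for those without. The factors themselves were measured too. Nrf1 had 31.1 ± 0.834 RPKM in the E9.5 WT and 27.7 ± 2.53 in the E11.5 WT (SD, n = 3), with an adjusted p of 0.14 (edgeR), and Gabpa, an ETS factor known from genes of mitochondria, had 24.9 ± 0.669 and 26.4 ± 1.84, with an adjusted p of 0.883 (edgeR), both named after their values were seen.

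From E11.5 to E12.5 few genes of the family passed the test in the WT. Of 76 genes tested 1 rose and 2 fell, where 17.1% of the 15324 genes tested rose and 16.3% fell, and the median log2 fold change was -0.08. It was -0.04 without WT replicate 3 of E12.5. Mrpl33, a small protein of the large subunit with a bacterial counterpart, rose from 91.9, 90.1 and 104 RPKM to 130, 121 and 132, by 0.35 ± 0.10 on the log2 scale (SE, adjusted p = 0.0156, edgeR). Mrps30 fell by 0.26 ± 0.09 (SE, adjusted p = 0.0344, edgeR) with groups that overlap, from 33.1, 32.7 and 40.2 RPKM to 31.9, 32.8 and 27.9. Mrps31, a small subunit protein, fell by 0.23 ± 0.07 (SE, adjusted p = 0.0197, edgeR), from 25.03, 24.81 and 24.97 RPKM to 22.27, 22.47 and 22.33, with groups apart. Without WT replicate 3 of E12.5, the library low in Pitx1, none of the 3 passed (adjusted p = 0.0515 for Mrpl33, 0.143 for Mrps30 and 0.0521 for Mrps31, edgeR). Without WT replicate 3 of E11.5 Mrps30 (0.164) and Mrps31 (0.0502) did not pass, without WT replicate 1 of E11.5 Mrpl33 (0.0522) did not, and without KO replicate 3 of E12.5, which shares the fit, Mrps30 (0.0574) did not. The fold change of Mrps30 was -0.16 without WT replicate 3 of E11.5, and with scaling by library totals only its adjusted p was 0.0724 (edgeR). With that scaling 4 genes rose and 1 fell.

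In the KO 25 of 76 genes fell from E11.5 to E12.5 and none rose, where 21.1% of the genes tested fell and 20.4% rose. The median log2 fold change was -0.19, beside 0.01 for all genes tested, and 65 of the 76 values were negative. Mrps10 fell from 17.22, 23.56 and 21.01 RPKM to 9.03, 16.5 and 12.9, by 0.76 ± 0.22 on the log2 scale (SE, adjusted p = 0.0159, edgeR). Mrpl32, a protein that an inner membrane protease must cut before it joins the ribosome, fell from 72.9, 79.9 and 81.6 RPKM to 60.4, 52.7 and 55.7, by 0.55 ± 0.09 (SE, adjusted p = 3.78e-04, edgeR). Its groups did not overlap, and nor did those of Mrpl52 (-0.56), Mrps22 (-0.52), Mrpl16 (-0.51), Mrps28 (-0.48), Mrpl46 (-0.41), Mrps30 (-0.40), Mrpl15 (-0.39) and Mrps6 (-0.39), all given as log2 fold changes. Mrps22, a small subunit protein found only in mitochondria, stood at 48.3, 61.3 and 53.9 RPKM in the E11.5 KO and at 44.1, 37.2 and 39.1 in the E12.5 KO. Mrpl16 stood at 34.2, 40.1 and 36.5 RPKM and then at 28.2, 27.3 and 26.5, and Mrpl52 at 219, 266 and 239 and then at 167, 173 and 177. In the WT the libraries of Mrpl16 and Mrpl52 overlapped between these stages and those of Mrps22 did not, with 42.757, 42.279 and 51.831 RPKM and then 42.272, 39.385 and 37.275. From E11.5 to E12.5 in the KO the muscle markers went from 15.7 to 28.3 RPKM to 297 to 580, the cartilage markers from 111 to 156 to 249 to 308, the surface ectoderm markers from 139 to 151 to 206 to 244 and the red blood cell markers from 11046 to 21461 to 9189 to 18009. In the WT the muscle markers went from 48.4 to 145.3 RPKM to 447 to 635. The part of these in the stage step was not tested.

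Without KO replicate 2 of E11.5, in which the family stood high, 15 genes fell. In that run 33.2% of all genes were called in either direction, beside 41.5% with all libraries. Mrps10 (adjusted p = 0.0613, edgeR), Mrps28 (0.0729) and Mrps6 (0.0551) were then no longer called. Without KO replicate 3 of E12.5 the calls of Mrps10 (0.051) and Mrps28 (0.0554) were lost, and without KO replicate 1 of E12.5 that of Mrps10 (0.0601). The interaction between genotype and this stage step had a median of -0.11 with 61 of 76 values negative. By edgeR 0 genes passed it, beside 0.00653% of all genes tested, with 9 at an unadjusted p under 0.05, beside 10.3% of all, and 1, Mrpl32 (-0.48), by DESeq2, which called 0.79% of all genes. The median was -0.05 without KO replicate 2 of E11.5. This contrast uses the same E11.5 libraries as the one from E9.5 to E11.5.

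Genotype was compared within each stage. At E9.5 no gene of the family passed the test between KO and WT. By edgeR 0 of 76 genes passed, where 0.0217% of the 13804 genes tested did. An unadjusted p under 0.05 was reached by 0 of the 76, beside 4.01% of all genes tested, and DESeq2 called 0, beside 0.138% of all. Mrpl23 was too low to be tested. The median log2 fold change was -0.04, with 51 of 76 values negative, and it was 0.03 without WT replicate 1 and -0.11 without WT replicate 3. The 3 largest differences were those of Mrps36 (-0.30 ± 0.50), Mrps10 (-0.26 ± 0.16) and Mrps14 (-0.25 ± 0.14), as log2 fold changes with SE (adjusted p = 0.999 each, edgeR). Mrps10 was at -0.43 without KO replicate 2 and at -0.16 without KO replicate 3, Mrps36 at 0.05 and Mrps14 at -0.07 without WT replicate 1. Mrps14, a small subunit protein with a bacterial counterpart, had 34.774, 24.254 and 24.995 RPKM in the WT and 24.0, 23.5 and 23.2 in the KO. It was 1 of 2 genes lower in every KO library than in every WT library, and none was higher, where 4.59% and 4.7% of the genes tested were so.

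At E11.5 1 gene of the family passed the threshold, and most values were slightly above 0. The median log2 fold change of 76 genes was 0.15, beside -0.01 for all genes tested, and 64 of the values were positive. Mrps10 alone rose, where 0.945% of the 14601 genes tested rose and 1.96% were called in either direction. It had 11.31, 8.90 and 13.998 RPKM in the WT and 17.22, 23.56 and 21.01 in the KO, so that the groups did not overlap. The difference was 0.85 ± 0.18 in log2 units (SE, adjusted p = 0.0455, edgeR). The call was lost without WT replicate 1 (adjusted p = 0.221), WT replicate 2 (0.0912), KO replicate 2 (0.103) or KO replicate 3 (0.197), all by edgeR, and kept without the other two libraries. By limma on log2(RPKM + 1) the adjusted p was 0.0549. A copy of Mrps10 with 97.8% identity is annotated.

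**Figure D4:**
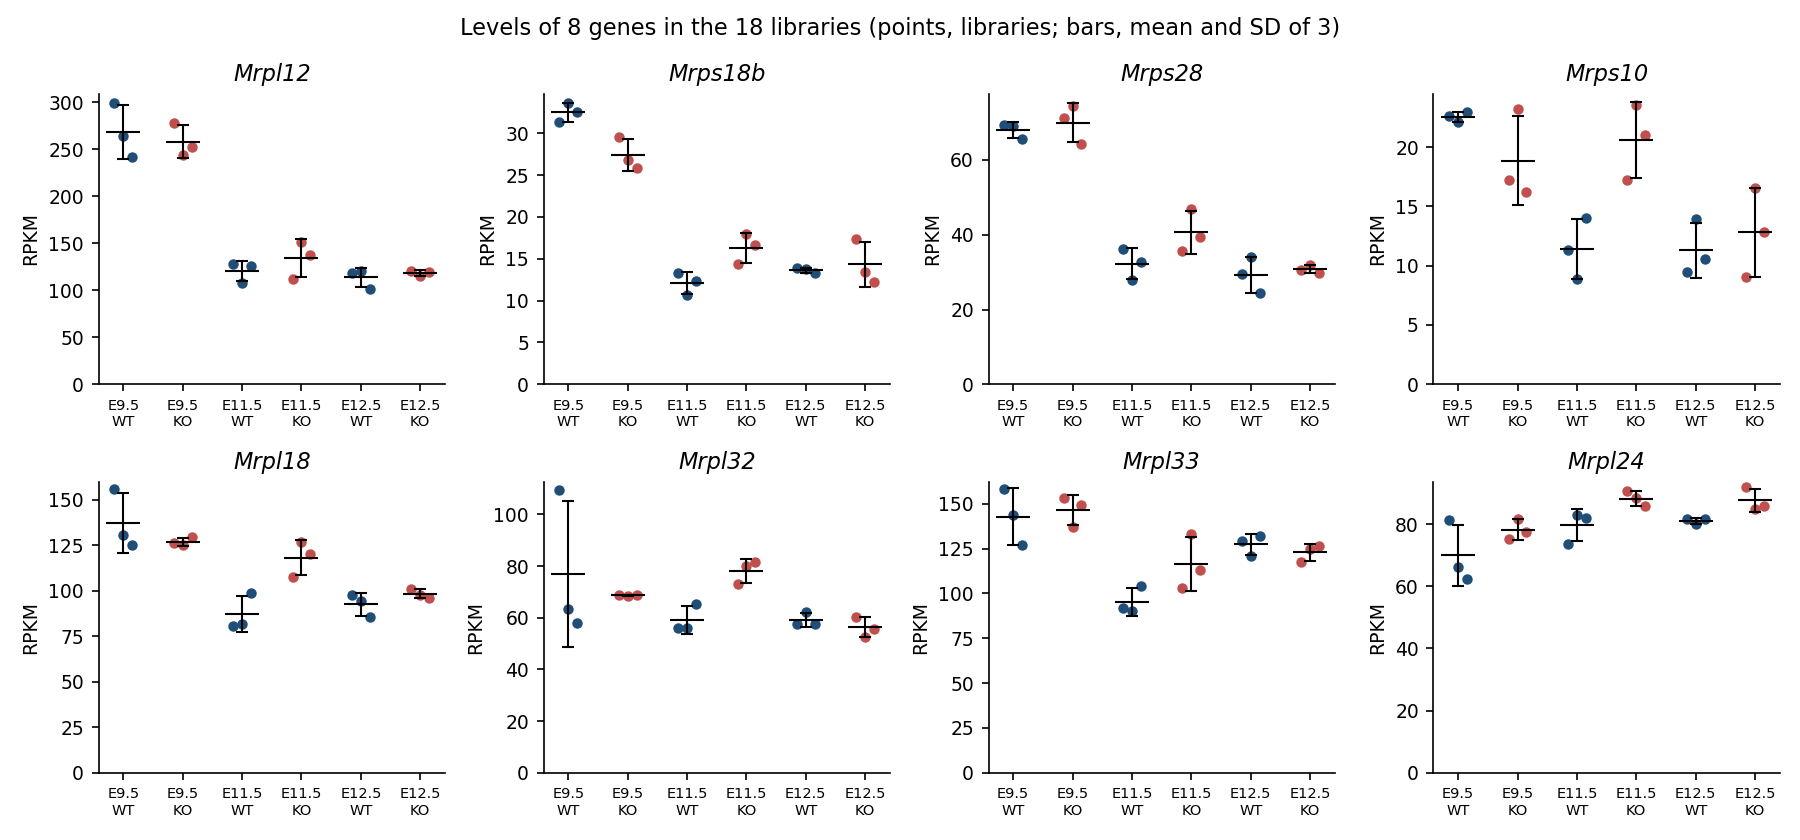
RPKM of 8 genes in each of the 18 libraries, wild type in blue and Pitx1 KO in red; points are libraries and bars give the mean and SD of 3, and each stage was normalized on its own. Mrpl12, Mrps18b and Mrps28 are high at E9.5 in both genotypes, and Mrpl24 shows no fall between stages. Mrps10 is low in the WT at E11.5 and in both genotypes at E12.5.

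The next genes at E11.5 just missed the threshold, and are named after their values were seen. Mrpl18, a protein of the central protuberance, had 80.9, 81.8 and 98.6 RPKM in the WT and 108, 127 and 120 in the KO, 0.44 ± 0.10 as log2 fold change (SE; adjusted p = 0.0528, edgeR). Mrpl32 had 56.1, 56.0 and 65.4 RPKM in the WT and 72.9, 79.9 and 81.6 in the KO, 0.40 ± 0.09 as log2 fold change (SE; adjusted p = 0.0592, edgeR). DESeq2 called both, with Mrps10, Mrpl16, Mrpl52 and Mrps15, 6 genes in all and each higher in the KO. DESeq2 called 8.94% of all genes there, a share near that of the family. Exons of Mrpl18 overlap Tcp1 on the other strand, and the strand setting of the counting is not given in the sources used here.

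Every KO library was above every WT library of E11.5 for 26 of the 76 genes, and below for none, where 13.7% of the genes tested were above and 14% below. At an unadjusted p under 0.05 stood 22 of the 76, beside 22.2% of all genes tested. Beside this difference other values moved as well. KO replicate 2, in which 72 of the 77 genes were above their group mean, took part in it, and the median was 0.10 without that library. At this stage the 7 muscle markers summed to 15.7 to 28.3 RPKM in the KO and to 48.4 to 145.3 in the WT, with none at 0 in either, and the 5 cartilage markers to 111 to 156 and 199 to 262 RPKM, with Matn1 at 0 in KO replicates 2 and 3. The 6 surface ectoderm markers summed to 139 to 151 RPKM in the KO and 110 to 139 in the WT. Depth was higher in each KO library than in each WT library. The red blood cell markers overlapped, with 11046 to 21461 RPKM in the KO and 11175 to 26462 in the WT. The part of these in the difference was not tested.

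At E12.5 none of the 76 genes passed the test between genotypes. By edgeR 0 passed, where 0.0138% of the 14494 genes tested did. An unadjusted p under 0.05 was reached by 3 genes, beside 15.1% of all genes tested, and DESeq2 called 0, beside 3.06% of all. The median log2 fold change was 0.06, with 55 of 76 values positive, and it was 0.02 without WT replicate 3. Mrps11, a protein of the platform of the small subunit, had 47.9, 47.8 and 54.4 RPKM in the WT and 56.6, 63.0 and 57.4 in the KO, 0.24 ± 0.08 as log2 fold change (SE; adjusted p = 0.268, edgeR). Mrps33 (0.23) and Mrpl45 (0.20) had the next largest values. Mrpl45, a protein that ties the ribosome to the inner membrane, had 23.0, 23.4 and 21.6 RPKM in the WT and 26.4, 24.9 and 26.7 in the KO. All 3 were among 11 genes that lay higher in every KO library, where 11.4% of the genes tested did, and 1 gene lay lower in every KO library, where 10.3% did.

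**Figure D5:**
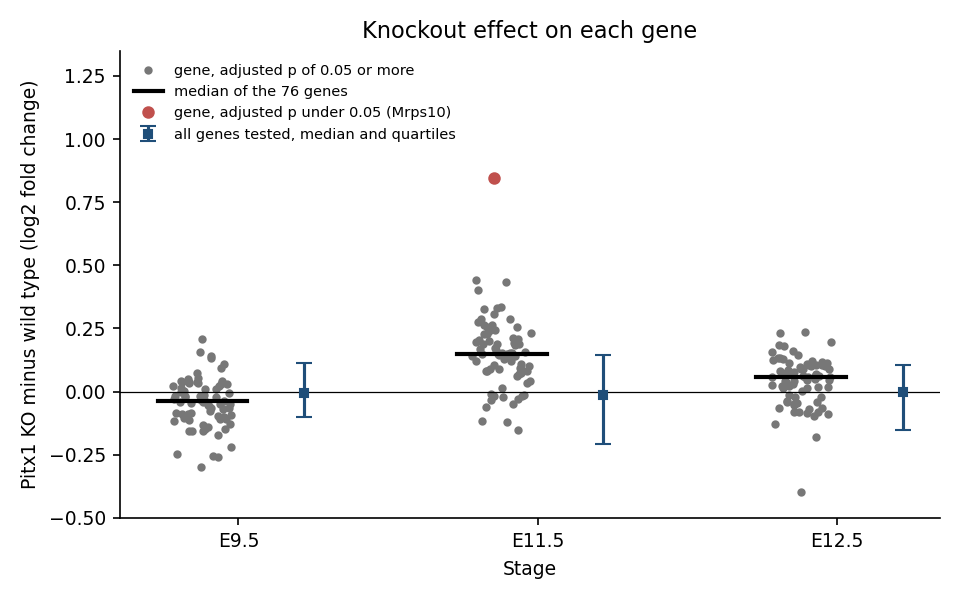
Log2 fold change of the KO against the wild type for each of the 76 genes tested, by stage; grey points are genes past no threshold, the red point is Mrps10 and black lines are the medians of the family. Blue squares with bars give the median and quartiles of all genes tested, and the family's medians are -0.04, 0.15 and 0.06.

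Other genes of mitochondrial translation were read from lists of the same machinery. From E9.5 to E11.5 in the WT, 27.6% of all genes tested fell and 28.3% rose. In that step 6 of 7 genes listed with the ribosomal proteins under other symbols fell and none rose. Aurkaip1 (-0.64), Ptcd3 (-0.58), Ict1 (-0.55) and Dap3 (-0.42) were among them, as log2 fold changes, and encode proteins of this ribosome. The list also holds Oxa1l, a membrane insertase. Of 13 translation factors 6 fell and none rose, with Gfm1 (-0.84) and Tufm (-0.77), which encode elongation factors, Mrrf (-0.60), the recycling factor, and Tsfm (-0.56), the exchange factor of Tufm. In the KO 4 of the 7 and 6 of the 13 fell, and 1 translation factor rose. Of all genes tested 25.5% fell in the KO and 25% rose.

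Assembly and rRNA modification genes had a median log2 fold change of -0.31 in the WT, beside -0.59 for the 77 genes. Of 25 such genes 12 fell in the WT and 13 in the KO, and none rose. Of all genes tested 27.6% fell in the WT and 25.5% in the KO. C1qbp, an abundant matrix protein, fell from 362, 362 and 348 RPKM at E9.5 to 132, 119 and 143 at E11.5 in the WT, by 1.52 on the log2 scale. Noa1 (-1.04), a GTPase of small subunit assembly, and Rbfa (-0.93), another small subunit assembly factor, fell as well. Ppan (-1.53), also on this list, is a nucleolar factor of the cytosolic ribosome. Of 17 mitochondrial aminoacyl-tRNA synthetases 10 fell and 1 rose in the WT, with Yars2 at -1.10 and Mars2 at -0.85, and 10 fell and 2 rose in the KO. Of 21 genes of mitochondrial DNA transcription and RNA stability 14 fell and 1 rose in the WT, with Tbrg4 (-1.15), Elac2 (-0.90), Polg (-0.79) and Peo1 (-0.70) as the largest falls. In the KO 7 of the 21 fell and none rose, with a median of -0.22, where 25.5% of all genes tested fell.

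The 12 listed regulators of mitochondrial gene expression moved in both directions. In the WT 3 rose and 4 fell from E9.5 to E11.5, where 28.3% of all genes tested rose and 27.6% fell, and in the KO 6 rose and 4 fell, where 25% rose and 25.5% fell. The WT counts are near the shares of all genes. Myc, a growth regulator that binds E-boxes, fell from 45.7, 54.7 and 43.7 RPKM to 13.0, 10.9 and 12.8, by 2.05 on the log2 scale, and Mycn fell from 76.7, 84.4 and 103 RPKM to 36.8, 36.8 and 42.3, by 1.26. Both fell in the KO as well, Myc by 2.42 and Mycn by 1.13. Ppargc1a, a coactivator of mitochondrial genes, rose by 3.03 on the log2 scale in the WT but from a low level, 0.203 ± 0.044 to 1.73 ± 0.183 RPKM (SD, n = 3). Pprc1, a relative of Ppargc1a, fell by 0.95.

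At E11.5 these lists held 1 call between genotypes, where 1.96% of the 14601 genes tested were called and 0.945% rose. Chchd1, which encodes a small subunit protein, had 149, 127 and 155 RPKM in the WT and 189, 243 and 212 in the KO, a rise of 0.58 ± 0.11 on the log2 scale (SE, adjusted p = 0.0316, edgeR). The medians were 0.10 for the 7 ribosomal proteins under other symbols, 0.15 for the 13 translation factors, 0.05 for the 25 assembly genes, 0.10 for the 17 synthetases and 0.15 for the 21 genes of mitochondrial DNA transcription and RNA stability. At E9.5 and E12.5 none of these genes passed, where 0.0217% and 0.0138% of all genes tested did.

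Other large families had lower medians at E11.5 as well. In the WT 49 of 81 cytosolic ribosomal protein genes fell from E9.5 to E11.5 and 1 rose, with a median log2 fold change of -0.55. In that step 27.6% of all genes tested fell. Of 79 oxidative phosphorylation subunits, the partners of the proteins that the mitochondrial ribosome makes, 36 fell and 1 rose, with a median of -0.28. Of 38 proteasome subunits 34 fell and none rose, with a median of -0.44. In the KO 38 of the cytosolic ribosomal genes fell and 3 rose (median -0.47), 24 of the oxidative phosphorylation genes fell and none rose (median -0.19), and 20 of the proteasome genes fell and 1 rose (median -0.25), where 25.5% of all genes tested fell. In the E11.5 KO against WT the medians were 0.13 for the cytosolic ribosomal, 0.10 for the oxidative phosphorylation and 0.14 for the proteasome genes, beside 0.15 for the mitochondrial ribosomal genes.

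Near-identical copies and overlapping genes limit single values. In the GENCODE M21 transcripts 17 of the 77 genes have a pseudogene copy with at least 95% identity over at least 200 bases, among them Mrps10, Mrps18b, Mrps33, Mrps36, Mrpl22 and Mrpl23, whereas Mrpl12, Mrps28, Mrpl16 and Mrpl32 have none. Exons of 21 genes overlap a gene on the other strand, as do those of Mrpl12 with Gm16755, and 5 overlap a gene on the same strand, as Mrps6 does with Slc5a3. Without the 17 genes, a step chosen after the data were seen, 54 genes fell from E9.5 to E11.5 in the WT and 41 in the KO.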

How the data were processed

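Libraries came from mirVana total RNA through a stranded TruSeq mRNA kit and ran on a NextSeq, per the labels' protocols. FastQC, TopHat2 and Cuffdiff were used on build mm9, per the submitters' processing notes, with no versions. Annotation, strand setting and the treatment of shared fragments are each not given in the sources used here. Per the file headers, the deposited tables, 1 per stage, hold raw fragments, which are estimated counts, and RPKM values in the authors' normalization. Cuffdiff's replicate indices were taken in order as replicates 1 to 3.

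Of 23929 listed names, those turned into dates that stand for 2 genes (2 names) and 6 genes with no estimate in a library were left out. Fragments were rounded (1.79% were not whole) and tested with edgeR 4.0.16 in R 4.3.3: TMM, filterByExpr, robust quasi-likelihood fits of 6 libraries per stage or 12 for stage and interaction contrasts, Benjamini-Hochberg over all genes, threshold 0.05. Later minus earlier stage and KO minus WT give the sign. No replicate pair agreed within sampling noise. Alternatives used DESeq2 1.42.0 and limma 3.58.1 on log2(RPKM + 1) or log2(RPKM + 0.1). The fits were also run on counts simulated with dispersions estimated from these data, which cannot test the assumptions of the model. Copies were found by aligning GENCODE M21 transcripts with blastn.

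The members, lists and motifs were chosen with earlier results of these data known. Named genes are, per comparison, up to 10 members per direction past the threshold or, where none passes, the 3 largest changes with a mean of 1 RPKM, a set of members with known roles and the 5 highest and 5 lowest for levels, and up to 4 past the threshold per other list. Others are said to be picked afterwards.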

Additional observations from a re-analysis of the deposited data

How the results depend on the processing

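The fall of the family between E9.5 and E11.5 kept its direction in each alternative run, and its count of calls stayed within 1.5 times: with a library left out by edgeR 59 to 69 genes passed in the WT (1 of 60 in the other direction without WT replicate 1 of E9.5) and 35 to 53 in the KO. In either direction, 47% of all genes were called in the WT run with 59 calls and 53.5% in that with 69. In the KO runs with 35 and 53 calls the shares were 41% and 46.3%. Scaling by library totals only took the median of all genes from 0.01 to 0.11 in the WT, and the median of the family was then -0.49. The genotype counts at E9.5 and E12.5 stayed at 0 in each alternative run.

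The count of 1 between genotypes at E11.5 was not stable. It was 0 with library totals only, without the robust step, by limma on log2(RPKM + 1) with and without a filter on low values and on log2(RPKM + 0.1), and without the members that have a copy, which leaves out Mrps10. It was 3 with no low-count filter (2.88% of all genes were called) and with all 18 libraries in one fit (4.48%), 6 by DESeq2 (8.94%), and 0 to 4 with a library left out. In the run with 4 calls 4.03% of all genes were called. From E11.5 to E12.5 the count in the WT was 5 with library totals only (4 higher) and 0 to 7 with a library left out, and in the KO it was 15 to 29 with a library left out. In either direction, 33.4% of all genes were called in the WT run with 7 calls. In the KO runs with 15 and 29 calls the shares were 33.2% and 39.5%. Library totals only took the median in the KO to -0.09. The counts of genes whose KO effect differed between stages, both 0, were 3 and 1 by DESeq2. Mrps36 between genotypes at E9.5 went from -0.46 to 0.0534 with a library left out, turning positive without WT replicate 1. Apart from what a smaller set of genes or libraries sets, the cause was not tested. Of 853 values of single genes in alternatives, 823 kept direction and side of the threshold.

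Same-numbered replicates did not pair throughout: their deviations had a correlation over 0.1 for every number in none of the comparisons, and in none did every library go best with its own number. Between genotypes at E12.5, however, replicates 1 and 3 went best with their own number (correlations 0.12 and 0.20), and replicate 2 did not (-0.01). The replicate block there called 2.66% of all genes, against 0.0138% without it, and no gene of the family was among them. With the replicate block the count between genotypes at E11.5 was 0 (Mrps10 at an adjusted p of 0.0751, edgeR), and the counts from E9.5 to E11.5 were 63 in the WT and 44 in the KO and from E11.5 to E12.5 2 (Mrps30 no longer called, adjusted p = 0.0601, edgeR) and 23. Members with pseudogene symbols ending in -ps do not exist in the family, so leaving them out gave no value. Depth limits the lowest genes, Mrpl23 and Mrps36, whose counts are small in each library.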
